A study of Mus musculus with 126 samples.

Results

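Colon RNA from mice lacking the clock activator BMAL1 was compared directly with colon RNA from mice lacking the mineralocorticoid receptor (MR). The comparison takes in every library of these genotypes, which are 2 of the 7 conditions of the series, each with 18 libraries: 18 are labelled Bmal1 knock out and 18 MR knock out, 36 in all, with 3 libraries of each genotype at each of 6 zeitgeber times (ZT0, ZT4, ZT8, ZT12, ZT16 and ZT20, counted in hours from lights on). Mice of both genotypes were 8 to 12 weeks old and had free access to normal chow, and the Bmal1 deletion is described as gut-specific. The Cre driver, deleted exons, strain and sex of the knock outs are not stated in the sources used here, and the line and the deletion cannot be told apart. Whether the 3 libraries of a time come from separate animals is not stated, so a p-value reflects only how these libraries vary, which may in part be technical. Wild-type libraries entered only 1 alternative fit and none of the tests below, and their means are printed beside some genes as control values only.

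BMAL1, the product of Arntl, pairs with CLOCK or NPAS2 and activates genes through E-box sequences. Its targets include the Per and Cry genes, whose proteins repress BMAL1, and Nr1d1 and Nr1d2, whose REV-ERB proteins repress genes with ROR elements such as Arntl itself, Cry1, Nfil3 and Npas2. MR, the product of Nr3c2, is the receptor through which aldosterone raises sodium uptake in the distal colon, by way of the epithelial sodium channel (Scnn1a, Scnn1b and Scnn1g), the sodium pump and the kinase SGK1. Setting the knock outs against each other asks which genes differ between the deletions and which do not.

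Values are FPKM (fragments per length of transcript and per total of mapped fragments) divided by a scale factor per library, called rescaled FPKM below. Differences are Bmal1 knock out minus MR knock out on the log2(rescaled FPKM + 0.5) scale, which understates the change of low genes, with their standard error (SE). Tests are limma's with Benjamini-Hochberg adjustment over 10608 genes, and a gene is called at an adjusted p under 0.05. The libraries also differed in ways that the labels do not define. Scale factors ranged from 0.355 to 1.88 in Bmal1 knock out (median 0.691) and from 0.763 to 1.84 in MR knock out (median 1.3). The 9 Bmal1 knock out libraries of ZT12, ZT16 and ZT20 had scale factors of at most 0.765, and the 3 of ZT4 had at least 1.66. Ribosomal RNA took a median 1.40% of the summed FPKM in Bmal1 knock out and 0.721% in MR knock out. The first principal component, with 44.6% of the variance, placed 13 Bmal1 knock out libraries (scale factors up to 0.927) apart from all MR knock out libraries. The other 5 (the 3 of ZT4, replicate 3 of ZT0 and replicate 2 of ZT8, with at least 1.64) lay among the MR knock out libraries. The tissue read as epithelium in both genotypes: the summed level of 8 epithelial genes was 4454 to 7226 in Bmal1 knock out and 4028 to 8889 in MR knock out, against at most 6.81 for 8 smooth muscle genes.

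Averaged over the 6 times, 6115 genes (57.6%) were called, 3195 higher (30.1%) and 2920 lower (27.5%) in Bmal1 knock out. The calls moved with the libraries: 551 genes were called at ZT0 (5.19%), 297 at ZT4 (2.8%), 121 at ZT8 (1.14%), 2435 at ZT12 (23%), 4355 at ZT16 (41.1%) and 4850 at ZT20 (45.7%). Each result is therefore given in up to 3 ways: over all 36 libraries, at ZT4, where every scale factor is at least 0.908, and over the 13 libraries of ZT0, ZT4 and ZT8 with a scale factor of at least 1 (5 Bmal1 knock out and 8 MR knock out), called high-scale libraries below and chosen after the data were seen. Bmal1 knock out has there only replicate 3 at ZT0 and only replicate 2 at ZT8, beside all its ZT4 libraries. The times are averaged with equal weight, so each of these lone libraries weighs more than any library of ZT4. The readings also share libraries and are not independent of each other. The genotypes still differ in scale in the high-scale libraries, at 1.64 to 1.88 in Bmal1 knock out and 1.01 to 1.65 in MR knock out. At ZT4 they do so at 1.66 to 1.86 and 0.908 to 1.29. In the high-scale libraries 546 genes (5.15%) were called, 202 higher (1.9%) and 344 lower (3.24%). Of these 278 were called with the same sign over the 36 libraries and 46 with the opposite sign. At ZT4 297 genes were called over the 36 libraries, and 22 without replicate 2 of every group. With FPKM as deposited the median difference over all genes was −0.65 instead of 0.01, and 106 genes were called higher against 9303 lower (1.13% of calls higher, against 52.2% after rescaling), so every difference below is relative to the median gene. The part of library quality in the calls was not tested.

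**Figure D1:**
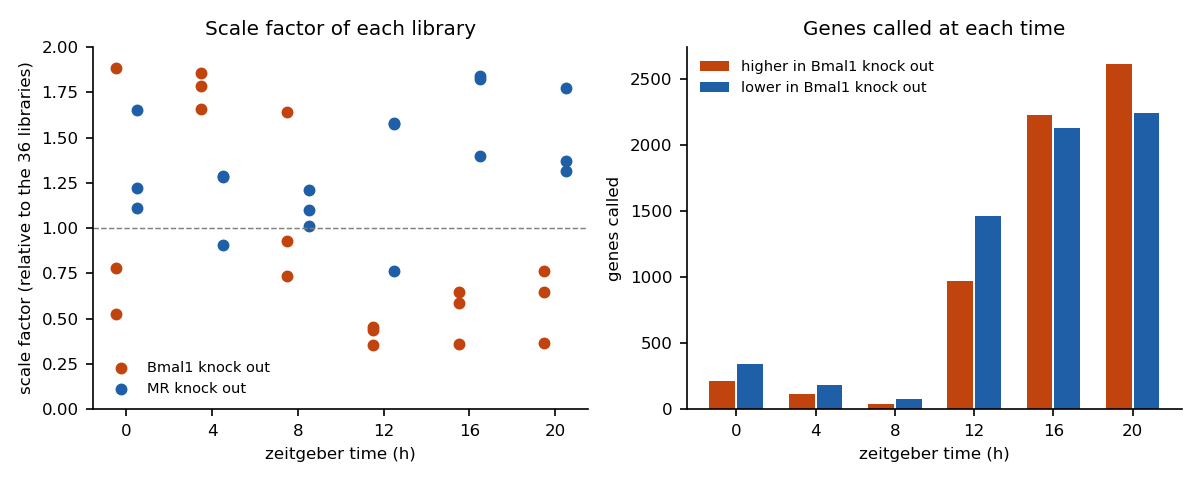
Left, the scale factor of each of the 36 libraries against zeitgeber time (h). Right, the number of genes called at each time (limma, adjusted p under 0.05), higher or lower in Bmal1 knock out. Scale factors of Bmal1 knock out are at most 0.765 from ZT12 to ZT20, and the calls go from 121 at ZT8 to 4850 at ZT20.

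Both targeted genes were read first, as a check of the labels. Nr3c2 had a lowest, median and highest rescaled FPKM of 2.76, 4.07 and 10.5 in Bmal1 knock out and of 1.39, 2.19 and 3.94 in MR knock out, with a wild-type mean of 11.3. MR knock out was lower on average at all 6 times, with overlap between single libraries (difference 0.88, SE 0.13, limma adjusted p = 4.23e-06). At ZT4 Nr3c2 had 10.5, 8.71 and 6.80 in Bmal1 knock out and 2.81, 2.24 and 2.02 in MR knock out. In the high-scale libraries the genotypes did not overlap, at 6.17 to 10.5 against 1.39 to 3.94 (difference 1.63, SE 0.21). Arntl had a lowest, median and highest of 2.41, 3.42 and 4.75 in Bmal1 knock out and of 1.28, 4.79 and 13.3 in MR knock out. Arntl RNA was thus present in Bmal1 knock out at a level that moved little over the day, while the MR knock out mean went from 10.4 at ZT0 to 1.53 at ZT12. Its mean difference was −0.35 (SE 0.086, limma adjusted p = 0.00118), with Bmal1 knock out above MR knock out at ZT8 and ZT12 and below it at the other 4 times. FPKM over a whole transcript cannot tell RNA that lacks the deleted exons from intact RNA, so the level of Arntl checks its label only in part.

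Promoter letters are shown first for the clock genes whose direction is described next. RefSeq windows (build GRCm38.p6, from 250 bases before to 50 bases after a start site) were at hand for 14 of the 19 clock genes that passed the filter on low values. The E-box CACGTG, which reads the same on both strands, was in the window of Per1, Cry1, Ciart and Tef and in 7.15% of all 32851 windows. The core of a ROR element, TAGGTCA searched on both strands, was in that of Arntl and Nfil3 (2.61% of all windows), and the D-box TTATGTAA, also searched on both strands, was in that of Per3 (0.938%). No window of these genes held more than 1 kind of the searched motifs, so matches of different motifs do not overlap. No match of any kind was in the windows of Nr1d1, Nr1d2, Dbp, Npas2, Clock, Cry2 and Csnk1e, and that of Cry1 had no ROR core. Only windows with a match are printed, so they do not stand for all clock genes. A match describes letters and is not a bound site. The windows lie at chr3:95882179-95882478 (minus strand, Ciart), chr15:81802423-81802722 (plus, Tef), chr10:85185005-85185304 (minus, Cry1), chr7:113207261-113207560 (plus, Arntl) and chr13:52980990-52981289 (minus, Nfil3). Each is printed 5′ to 3′ on the strand of the gene, with E-boxes or ROR cores in capitals.
Ciart: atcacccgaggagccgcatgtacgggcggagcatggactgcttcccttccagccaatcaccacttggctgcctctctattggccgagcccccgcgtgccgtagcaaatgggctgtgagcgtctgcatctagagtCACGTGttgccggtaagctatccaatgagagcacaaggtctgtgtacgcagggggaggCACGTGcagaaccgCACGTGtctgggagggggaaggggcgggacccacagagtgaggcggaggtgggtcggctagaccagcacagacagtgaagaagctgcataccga
Tef: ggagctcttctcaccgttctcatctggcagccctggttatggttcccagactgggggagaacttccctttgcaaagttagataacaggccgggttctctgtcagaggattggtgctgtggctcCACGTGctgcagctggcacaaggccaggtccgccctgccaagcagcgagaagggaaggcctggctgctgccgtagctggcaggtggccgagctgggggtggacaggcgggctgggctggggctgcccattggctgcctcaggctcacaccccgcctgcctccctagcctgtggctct
Cry1: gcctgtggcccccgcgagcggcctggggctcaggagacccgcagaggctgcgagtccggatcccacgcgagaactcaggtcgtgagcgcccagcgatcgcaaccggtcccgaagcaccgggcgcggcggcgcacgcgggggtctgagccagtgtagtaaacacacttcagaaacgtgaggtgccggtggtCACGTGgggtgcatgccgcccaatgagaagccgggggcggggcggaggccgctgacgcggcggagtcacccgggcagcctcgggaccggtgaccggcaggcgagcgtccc
Arntl: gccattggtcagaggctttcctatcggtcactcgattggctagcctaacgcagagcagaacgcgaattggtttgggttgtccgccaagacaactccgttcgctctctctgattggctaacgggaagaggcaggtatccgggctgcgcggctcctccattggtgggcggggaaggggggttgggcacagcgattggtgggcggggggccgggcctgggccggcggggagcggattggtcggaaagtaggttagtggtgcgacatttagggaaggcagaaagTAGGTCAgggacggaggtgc
Nfil3: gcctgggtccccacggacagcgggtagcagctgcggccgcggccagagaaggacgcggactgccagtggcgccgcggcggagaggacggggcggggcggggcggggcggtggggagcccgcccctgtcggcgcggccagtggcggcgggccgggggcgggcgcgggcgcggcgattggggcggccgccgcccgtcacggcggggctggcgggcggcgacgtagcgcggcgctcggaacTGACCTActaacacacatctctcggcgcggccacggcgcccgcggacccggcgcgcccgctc
Ciart carries 3 E-boxes, which start 116, 58 and 44 bases before its start site. In Nfil3 the ROR core lies on the other strand and is printed as its reverse complement.

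Of 24 listed clock genes 19 were tested. Over the 36 libraries 7 were higher in Bmal1 knock out (30.1% of all genes), 11 lower (27.5%) and 1, Clock, was not called (difference 0.09, 95% interval −0.06 to 0.25). In the high-scale libraries 6 were higher (1.9% of all genes) and 4 lower (3.24%), and at ZT4 5 were higher (1.09% of all genes) and 4 lower (1.71%). The REV-ERB genes were the lowest in Bmal1 knock out relative to MR knock out. Nr1d1 had a lowest, median and highest rescaled FPKM of 0.316, 0.577 and 1.75 in Bmal1 knock out and of 0.81, 8.34 and 28.7 in MR knock out. The genotypes overlapped where MR knock out was near its daily trough. At ZT4 they did not, at 0.486, 0.765 and 0.479 in Bmal1 knock out and at 13.3, 17.2 and 24.7 in its counterpart. The difference of Nr1d1 was −2.68 (SE 0.13, limma adjusted p = 1.09e-15), and it was −4.10 at ZT4 and −3.18 in the high-scale libraries. Nr1d2 had 0.232, 0.432 and 1.05 against 1.16, 4.76 and 10.8, with no overlap between any libraries (difference −2.28, SE 0.086, and −2.01 in the high-scale libraries).

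Among other genes that BMAL1 is known to activate, Ciart, Dbp, Per3, Tef and Bhlhe40 were lower on average over the 36 libraries, whereas Per1, Per2, Cry1 and Cry2 were higher. Ciart, which encodes a repressor of CLOCK and BMAL1, had a lowest, median and highest of 0, 0.279 and 1.09 in Bmal1 knock out and of 0.241, 0.778 and 9.87 in MR knock out. Its difference was −1.24 (SE 0.11) and −1.05 in the high-scale libraries, both called. Dbp, a factor that drives output genes through D-boxes, had 0.443, 0.937 and 1.88 against 0.397, 2.73 and 31.5. Only the MR knock out libraries reached above 1.88, and the difference of Dbp was −1.39 (SE 0.15), with −1.06 in the high-scale libraries. Per3 (−1.28, SE 0.13), Tef (−0.81, SE 0.093) and Bhlhe40 (−0.44, SE 0.093) were called over the 36 libraries and not in the high-scale libraries, where their differences were −0.34, −0.17 and 0.14. At ZT12, a time outside the high-scale libraries, the difference was −3.88 for Dbp, −2.38 for Tef and −2.67 for Per3.

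Of the genes named above as repressed by REV-ERB proteins, Cry1, Npas2 and Nfil3 were higher in Bmal1 knock out, and Arntl, the deleted gene, was lower. Cry1, a repressor of CLOCK and BMAL1, had a lowest, median and highest rescaled FPKM of 9.92, 12.9 and 16.7 in Bmal1 knock out and of 2.04, 6.71 and 12.7 in MR knock out (difference 1.10, SE 0.074, limma adjusted p = 4.24e-12). At ZT4 the Bmal1 knock out libraries had 16.7, 13.9 and 12.9 and the MR knock out libraries 4.11, 2.77 and 3.35, with no overlap. Npas2, which encodes a partner of BMAL1, and Nfil3, a repressor at D-boxes, were higher too, by 0.72 (SE 0.065) and 0.80 (SE 0.11) over the 36 libraries and by 0.82 and 1.13 in the high-scale libraries. Per2 turned with the time: at ZT4 it had 4.54, 4.58 and 2.86 against 0.609, 0.633 and 0.926 (difference 1.86), and at ZT12 the difference was −0.92. Its mean difference was 0.27, and those of Per1 and Cry2 were 0.23 and 0.20, all called over the 36 libraries. Without replicate 1 of every group Per2, Per1 and Cry2 were at 0.12, 0.16 and 0.14 and were not called. With FPKM as deposited all 3 were below 0, where the median of all genes was −0.65.

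Over the day the clock genes moved in MR knock out and hardly in Bmal1 knock out. A 24 h cosine was called in MR knock out for 17 of the 19 genes (13.5% of all genes) and in Bmal1 knock out for 5 (49.9% of all genes). The amplitude, from mean to peak on the log2 scale, was larger in MR knock out for 18 of 19, with a median of 0.927 against 0.186. Nr1d1 and Dbp had amplitudes of 2.24 and 2.23 in MR knock out and of 0.316 and 0.185 in Bmal1 knock out, with MR knock out peaks at 8.45 h and 10.4 h after lights on. Arntl had 1.22 against 0.187, with its peak in MR knock out at 22.5 h. The rhythms differed between the genotypes for 15 of the 19 genes, where 47.7% of all genes did. Leaving out replicate 2 of every group took the difference in rhythm from 5058 genes to 92, and Arntl, Npas2, Per2, Cry1, Cry2, Ciart, Nr1d1, Nr1d2, Dbp and Tef were among these (limma adjusted p from 0.0103 to 0.0446). Without the 9 Bmal1 knock out libraries whose scale factor was under 0.6 of the median over the 36, no Bmal1 knock out library is left at ZT12 and ZT16 and 1 at ZT20, so the rhythm difference without them is not read here.

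**Figure D2:**
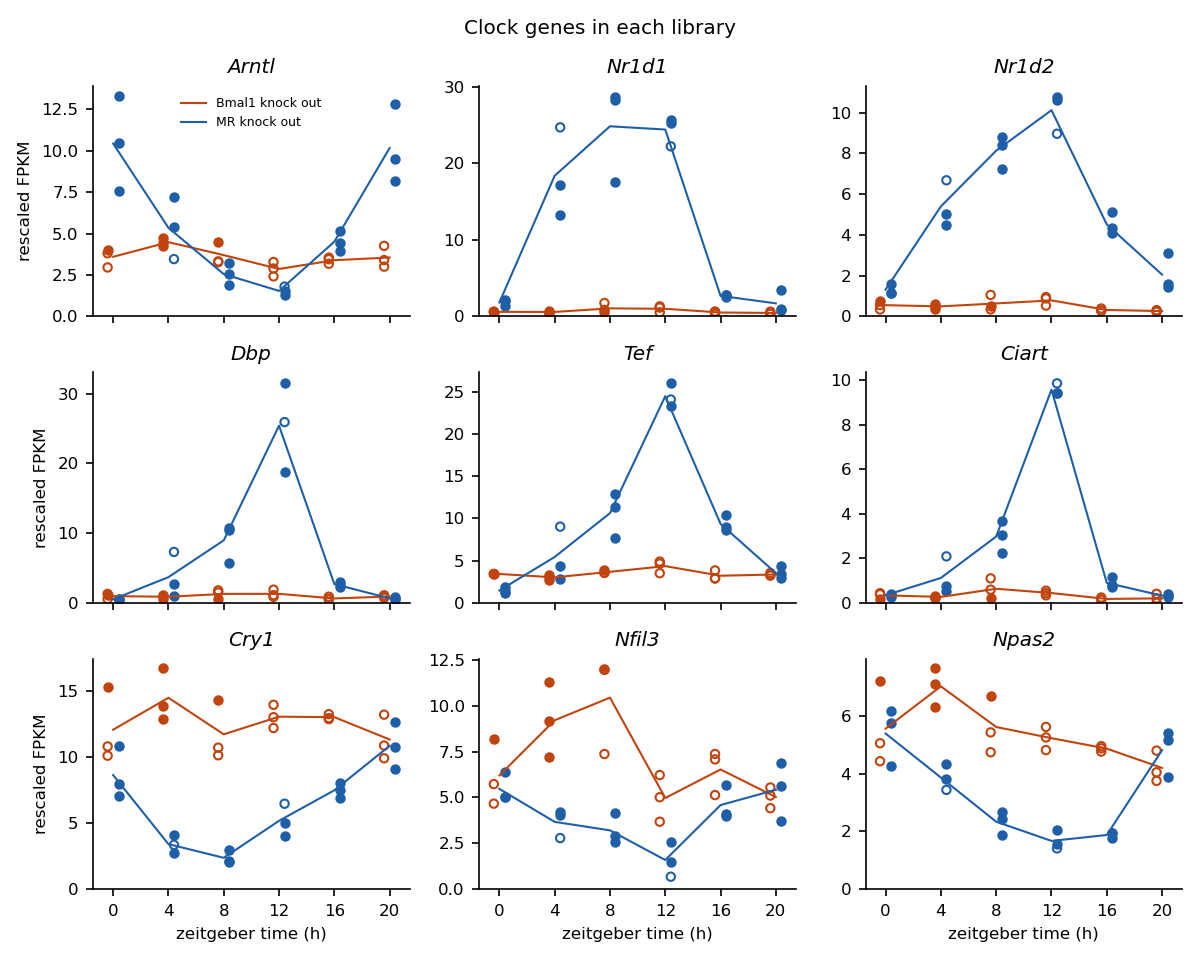
Rescaled FPKM of 9 clock genes against zeitgeber time (h), with points for libraries (open where the scale factor is below 1) and lines through the means of 3 libraries, for Bmal1 knock out and MR knock out. The MR knock out lines of Nr1d1, Dbp and Tef rise and fall over the day, as Nr1d1 between 0.81 and 28.7, while its Bmal1 knock out libraries stay between 0.316 and 1.75.

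On the side of MR, Fkbp5 held the genotypes apart in every reading, and other corticosteroid targets did so in part. Fkbp5, a chaperone partner of these receptors and one of their targets, had a lowest, median and highest rescaled FPKM of 20.8, 27.3 and 44.5 in Bmal1 knock out and of 11.7, 14.3 and 20.6 in MR knock out, with no overlap by a narrow margin, and a wild-type mean of 27.0. The difference of Fkbp5 was 0.91 (SE 0.061, limma adjusted p = 4.24e-12), and it was 0.87 at ZT4 and 0.86 in the high-scale libraries, all called. Sgk1, a kinase that keeps the sodium channel at the cell surface, was at 15.3, 22.5 and 64.5 against 8.25, 16.6 and 47, with wide overlap (difference 0.48, SE 0.14, and 0.96 in the high-scale libraries, both called). Without replicate 2 of every group Sgk1 was at 0.32 and not called. With FPKM as deposited it was −0.27, where the median of all genes was −0.65. Tsc22d3, a steroid-induced transcription regulator, was higher by 0.97 (SE 0.11) over the 36 libraries, with 0.07 at ZT4 and 0.42 in the high-scale libraries, where neither was called. Hsd11b2, which protects MR from glucocorticoids, was not called (difference 0.27, 95% interval 0.00 to 0.54), with means of 37.0 and 32.7 against 85.2 in wild type. Of 10 tested genes of the corticosteroid list 5 were higher (30.1% of all genes) and 3 lower (27.5%) in Bmal1 knock out, and in the high-scale libraries 3 were higher (1.9%) and 0 lower (3.24%). The deleted gene Nr3c2 is on the list and is 1 of those higher in both counts.

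The sodium channel subunits did not move together. Scnn1b had a lowest, median and highest rescaled FPKM of 0.419, 1.5 and 2.79 in Bmal1 knock out and of 0.11, 0.316 and 1.47 in MR knock out (difference 1.10, SE 0.10, limma adjusted p = 1.68e-09), with 0.32 in the high-scale libraries, not called. Scnn1a was lower in Bmal1 knock out, with means of 13.7 ± 2.80 and 22.7 ± 6.69 (SD, n = 18 each; difference −0.69, SE 0.090), and −0.28 in the high-scale libraries, not called. Scnn1g did not pass the filter on low values. Fxyd4, a regulator of the sodium pump, ranged from 1.31 to 49.8 against 0.302 to 18 (difference 2.27, SE 0.34), but its difference was 0.19 in the high-scale libraries, and the wild-type mean was 53.4. The pump subunit gene Atp1b1 was lower by 0.50 (SE 0.081) over the 36 libraries and not called in the high-scale libraries (−0.26). Of 11 tested genes of the sodium channel list 3 were higher (30.1% of all genes), 4 lower (27.5%) and 4 not called, close to the shares over all genes.

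**Figure D3:**
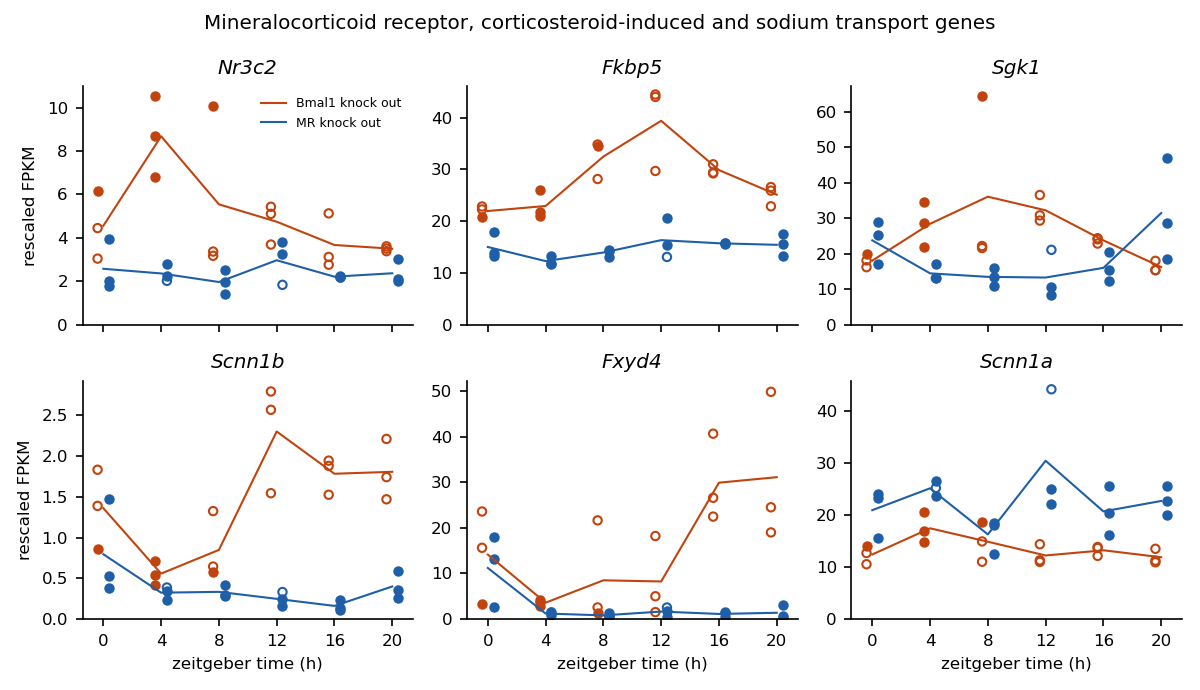
Rescaled FPKM of MR and sodium transport genes against zeitgeber time (h), with points for libraries (open where the scale factor is below 1) and lines through the means of 3 libraries. Fkbp5 keeps the genotypes apart in every library, at 20.8 to 44.5 against 11.7 to 20.6, while Fxyd4 separates mostly at ZT16 and ZT20, where every Bmal1 knock out point is open.

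Genes of the surface colonocyte, the mature absorptive cell, were mostly lower in Bmal1 knock out when averaged over the times. Over the 36 libraries 10 of 12 tested were lower (27.5% of all genes) and 0 higher (30.1%). Their median difference was −0.99, against 0.01 over all genes. In the high-scale libraries 6 were lower (3.24% of all genes), with a median of −0.56 against −0.01. At ZT4 2 of the 12 were lower (1.71% of all genes) and at ZT8 0 were called (1.14% of all genes), with medians of −0.59 and −0.62. Car4, a carbonic anhydrase of the apical membrane, had a lowest, median and highest rescaled FPKM of 70.5, 142 and 260 in Bmal1 knock out and of 220, 314 and 1032 in MR knock out. At ZT4 it had 166, 70.5 and 119 against 324, 290 and 769, with no overlap, and its difference was −1.42 (SE 0.16) over the 36 libraries and −1.64 in the high-scale libraries. Aqp8, a water channel, was at 51.5, 79.7 and 210 against 155, 276 and 1298, and the genotypes overlapped between 155 and 210 (difference −1.79, SE 0.22, and −1.73 in the high-scale libraries). Krt20, a keratin of mature cells (−0.70, SE 0.11), and Clca4a (−1.97, SE 0.16) were called in both readings, at −0.68 and −0.99 in the high-scale libraries. In bulk RNA, fewer cells of a type and less RNA per cell cannot be told apart.

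Electroneutral sodium chloride absorption gave a different picture in the high-scale libraries. Of 15 tested genes 12 were lower (27.5% of all genes) and 1 higher (30.1%) in Bmal1 knock out over the 36 libraries (median −0.55). In the high-scale libraries 2 were lower (3.24% of all genes) and 0 higher (1.9%), with a median of 0.08. Slc26a3, the chloride exchanger of the surface, was lower by a difference of −1.49 (SE 0.14), with medians of 36.7 (range 21.1 to 121) and 112 (69.5 to 226), and its difference was −0.46 in the high-scale libraries, not called. Slc9a3r1, a scaffold of apical exchangers, held in both, with −0.90 (SE 0.095) and −0.83. Slc9a8, a sodium-proton exchanger, had a 95% interval of −0.03 to 0.15 and so lay within 1.5-fold, as did 74.2% of all genes.

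Enzymes of xenobiotic metabolism were lower in Bmal1 knock out for 23 of 31 tested (27.5% of all genes) and higher for 3 (30.1%) over the 36 libraries (median −0.80). In the high-scale libraries 3 were lower (3.24% of all genes) and 0 higher (1.9%), with a median of −0.21. Ces1d, a carboxylesterase, had a lowest, median and highest rescaled FPKM of 2.96, 4.96 and 11.2 in Bmal1 knock out and of 12.6, 26.7 and 54.5 in MR knock out, with no overlap (difference −2.10, SE 0.16). In the high-scale libraries it was −1.06 and not called (limma adjusted p = 0.0661). Por, the electron donor of the cytochromes P450, was lower by −0.94 (SE 0.073) and not called in the high-scale libraries (−0.28). Carboxylesterase genes lie in a cluster of near copies that may share reads.

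MHC class II genes were lower in Bmal1 knock out over the 36 libraries, and T cell genes were lower at ZT4 and in the high-scale libraries. The 6 tested MHC class II genes were all lower over the 36 libraries (27.5% of all genes, median −1.53). None was called in the high-scale libraries (5.15% of all genes), where the median was −2.03. Of 14 tested genes of MHC class I presentation 2 were higher (30.1% of all genes), 4 lower (27.5%) and 8 not called (median −0.14). H2-Aa, a chain of the class II molecule, had a lowest, median and highest rescaled FPKM of 2.64, 28.7 and 120 in Bmal1 knock out and of 21.2, 94.1 and 269 in MR knock out, with wide overlap and a wild-type mean of 2.49 (difference −1.80, SE 0.46, limma adjusted p = 0.00204). Leaving out replicate 1 of every group brought H2-Aa to −1.13, not called. H2-Eb1, Cd74 and H2-DMa, of the same list, were also smallest without replicate 1, at −1.075, −1.08 and −0.75. Each lost its call in 1 of the 39 settings that left out libraries. No MHC class II gene was called at any single time. T cell genes were lower at ZT4 for 7 of 7 tested (1.71% of all genes) and in the high-scale libraries for 7 of 7 (3.24%, median −1.69). The high-scale libraries include libraries of ZT4. Over all libraries of ZT0 and of ZT8 none was called (medians −0.34 and −0.66). Averaged over the 36 libraries 3 were lower (27.5% of all genes), and at ZT16 2 were higher (21% of all genes). Gzma, a granule protease of cytotoxic cells, had 1.81, 1.68 and 1.05 in Bmal1 knock out at ZT4 and 12.2, 13 and 17.5 in MR knock out, with no overlap (difference −2.88). Cd3e, of the T cell receptor complex, had 0.394, 0.0797 and 0.114 against 2.97, 2.52 and 2.61. Marker sums of other cell types were also higher in MR knock out at ZT4, at 3.27 to 10.7 against 0.0627 to 0.26 for 6 fibroblast genes and 4.31 to 7.44 against 1.94 to 2.73 for 8 myeloid genes. Their part in the T cell difference was not tested.

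Of 31 interferon response genes 1 was higher (30.1% of all genes), 5 lower (27.5%) and 25 not called (median −0.01). None was called in the high-scale libraries (5.15% of all genes, median −0.05). For 13 of the 31 the 95% interval lay within 1.5-fold, against 74.2% of all genes. Irf9, a factor of the interferon signal, had means of 13.5 ± 2.21 and 12.9 ± 3.05 (SD, n = 18 each), both above the wild-type mean of 6.58 (difference 0.09, 95% interval −0.10 to 0.27). Bst2, an antiviral membrane protein, was the gene called higher, at 56.5 ± 21.2 and 33.3 ± 16.6 against 8.65 in wild type (difference 0.89, SE 0.24).

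Averaged over the day, genes of cell division were close in both genotypes: all 20 tested mitosis genes had an interval within 1.5-fold, against 74.2% of all genes. Of the 20, 9 were higher (30.1% of all genes) and 0 lower (27.5%) in Bmal1 knock out (median 0.15, and −0.51 with FPKM as deposited). The times differed: 4 were higher at ZT4 (1.09% of all genes, median 0.52) and 5 at ZT12 (970 of all 10608 genes, median 0.36). At ZT16 9 were lower (2127 of all 10608 genes, median −0.39), and the interaction was called for 9 (20.2% of all genes). Mki67, a marker of cycling cells, had means of 12.2 and 10.2 (difference 0.23, SE 0.064, and −0.49 with FPKM as deposited), and at ZT4 the difference was 0.72 and called. Cytosolic ribosomal protein genes were higher in Bmal1 knock out for 19 of 21 over the 36 libraries (30.1% of all genes). Their median was 0.47, and −0.30 with FPKM as deposited. The high-scale libraries gave a median of −0.22 with none called. Rps19, for example, went from a difference of 1.05 to −0.29, and Pyy, a hormone of enteroendocrine cells, from 0.87 to −0.44. Heat shock genes were higher for 9 of 11 (30.1% of all genes; median 0.42, and −0.31 with FPKM as deposited), with a median of 0.20 and none called in the high-scale libraries. The median of all genes with FPKM as deposited was −0.65. Relative to it the mitosis, ribosomal protein and heat shock medians were 0.14, 0.35 and 0.34.

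**Figure D4:**
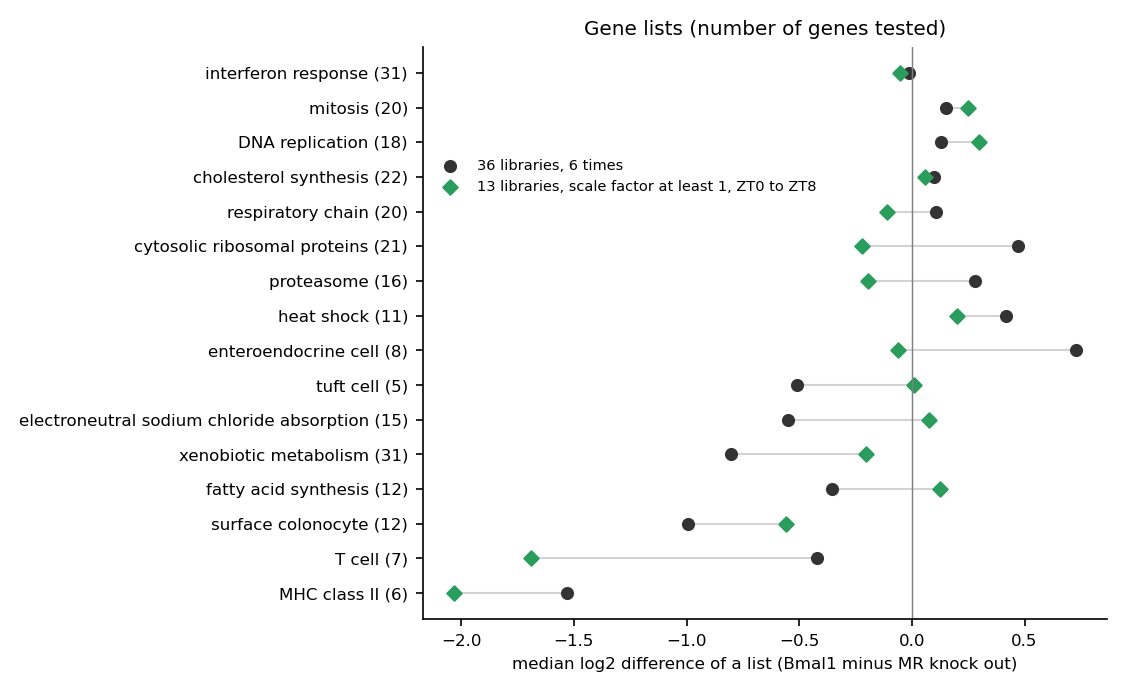
Median difference (log2, Bmal1 knock out minus MR knock out) of the tested genes in each list, with circles for all 36 libraries and diamonds for the 13 high-scale libraries. The surface colonocyte and MHC class II medians lie below 0 in both, at −0.99 and −0.56 and at −1.53 and −2.03, whereas the ribosomal protein median goes from 0.47 to −0.22.

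A difference of at least 2-fold with 1 sign at all 6 times was found for 128 rows of the table (1.21%), 44 higher (0.415%) and 84 lower (0.792%) in Bmal1 knock out. Some symbols fill several rows with the same or nearly the same values, and the 128 rows hold 115 symbols, 32 higher and 83 lower. Of the 128 rows 65 were called with the same sign in the high-scale libraries, 44 at ZT4, and 4 had the opposite sign in the high-scale libraries. The lowest was Trim12a, a member of a TRIM family with close copies that may share reads, with a lowest, median and highest rescaled FPKM of 0, 0.0305 and 0.125 in Bmal1 knock out and of 6.26, 13.2 and 35.5 in MR knock out, and a wild-type mean of 6.01 (difference −4.64, SE 0.12, limma adjusted p = 9.77e-22). Its neighbour Trim30d had means of 0.603 and 7.80 (difference −2.95, SE 0.12). The highest was Hddc3, a nucleotide hydrolase gene, with 20.2, 48.2 and 63.9 against 1.24, 2.36 and 3.19 and a wild-type mean of 2.02 (difference 3.96, SE 0.11). Klk1b22, a kallikrein gene with close copies that may share reads, had means of 4.73 and 0.0382 (difference 2.44, SE 0.47). Fah, an enzyme of tyrosine breakdown, had means of 10.8 and 2.28 (difference 2.02, SE 0.12). Trim12a, Trim30d, Hddc3 and Fah did not overlap between any libraries and were called in the high-scale libraries, at −4.64, −2.44, 3.34 and 1.56.

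These 4 genes lie on chromosome 7, as does Arntl. By the distance between gene centres Trim12a lies −8.95 Mb, Trim30d −8.77 Mb, Hddc3 −32.9 Mb and Fah −28.7 Mb from it. Trim12a spans chr7:104299894-104315466 and Hddc3 chr7:80343104-80350547 (GRCm38.p6). Within 10 Mb of Arntl 7 of 94 tested rows (7.45%) were among the 128, against 124 of 10510 rows with a position (1.18%). At 20 to 40 Mb from Arntl, where Hddc3 and Fah lie, it was 3 of 155 (1.94%). Within 10 Mb of Nr3c2 on chromosome 8 it was 8 of 169 (4.73%). At 20 to 40 Mb from Nr3c2 it was 4 of 145 (2.76%), all of them carboxylesterase genes of 1 cluster. Ces1d, described above, lies 16.1 Mb from Nr3c2. Counted once per symbol within 10 Mb, it was 6 of 91 near Arntl (6.59%), 8 of 169 near Nr3c2 and 115 of 10548 in all (1.09%). Of the 6 near Arntl, Trim34a, Trim12a, Trim30d, Gm8979 and Gm8989 lie together, from −9.01 to −6.93 Mb. Such neighbours are not separate cases. Trim34a, Gm8979 and Gm8989 are named after their values were seen. Chromosome 14, which holds neither target, had 20 of 370 rows (5.41%), but these are 9 of 357 symbols (2.52%), since Tmem254a, Tmem254b, Tmem254c, Plac9a and Plac9b, named after their values were seen, fill 3 rows each and Entpd4 fills 2. Near Nr3c2, Zfp791, a zinc finger gene, had means of 0.312 and 2.66 against 0.559 in wild type (difference −1.94, SE 0.066), and Gadd45gip1, a mitochondrial ribosome protein gene, had 22.5 and 4.78 against 7.01 (difference 1.96, SE 0.12). In the high-scale libraries Zfp791 was at −1.60 and Gadd45gip1 at 0.89, both called. The high-scale means of Gadd45gip1 were 8.93 in Bmal1 knock out and 4.73 in MR knock out. Ocel1, Zfp868 and Tm6sf2, named after their values were seen, had differences of −1.45, −1.45 and −1.53 at −5.70, −7.45 and −7.00 Mb from Nr3c2. Scnn1b and Aqp8, described above, lie 8.63 Mb and 10.2 Mb after Arntl. In the high-scale libraries Scnn1b was at 0.32, not called, and Aqp8 at −1.73, called. Whether such genes differ through the deletion or through other DNA carried along with the targeted locus cannot be told apart here. The part of library quality in these differences was not tested. Nnt, also named after its value was seen, encodes a mitochondrial transhydrogenase that the C57BL/6J strain is known to carry in a truncated form, and had means of 1.86 and 5.56 in the respective knock outs (Bmal1, then MR) and of 3.08 in wild type (difference −1.35, SE 0.090), with no overlap between the knock outs.

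**Figure D5:**
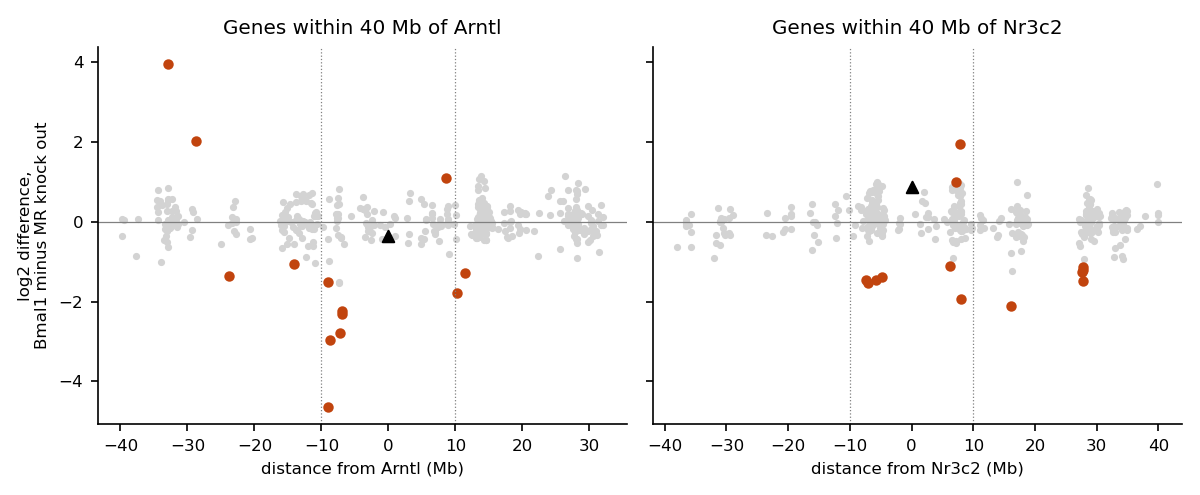
Difference (log2, Bmal1 knock out minus MR knock out) of each tested gene within 40 Mb against its distance in Mb from Arntl on chromosome 7 and from Nr3c2 on chromosome 8. Red points are rows of at least 2-fold and 1 sign at all 6 times, the triangle is the target and dotted lines mark 10 Mb. Red points make up 7.45% of rows within 10 Mb of Arntl and 4.73% within 10 Mb of Nr3c2.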

How the data were processed

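PolyA RNA of mouse colon was sequenced from 36 libraries compared here. The authors deposited FPKM values per gene, made with TopHat2 2.1.1 and Cufflinks 2.2.1 on mm10, per the submitters' processing notes; whether the tables of both genotypes were normalized together is not stated, and depth in reads is unknown. Counting by strand is not stated, so overlapping antisense genes cannot be told apart. A median-of-ratios factor per library, taken over 10583 genes, rescaled the values. Of 24883 genes, 10608 with a mean of at least 1 in either genotype were kept (each a table row, with 10548 symbols in all), 0.5 was added and log2 taken. limma 3.58.1 in R 4.3.3 fitted 12 means (24 residual degrees of freedom, trend and robust variance), with Benjamini-Hochberg adjustment at 0.05. Time and genotype gave the interaction, and cosine terms the rhythms. Genes were named by list (clock, corticosteroid and sodium channel members, and elsewhere the smallest adjusted p or narrowest interval), by the 15 largest 2-fold differences in each direction with 1 sign at all 6 times, and by the 10 largest changes over time or 5 per time; members and lists were chosen with earlier results of these data known. The fits were checked on simulated data with independent noise for each gene. These held no difference in quality between libraries, so the check does not cover that feature of the data. Same-numbered libraries deviated together with correlations from −0.121 to 0.505 (median 0.0283), so the numbers were not used as pairs. No libraries were identical. Alternatives covered the pseudocount, filter, scaling, libraries and covariates.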

Additional observations from a re-analysis of the deposited data

Results flagged for a closer look

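The difference between the genotypes changed with the time of day for 2145 genes (limma interaction, 20.2% of all tested). For each named gene below the value is the largest minus the smallest of its 6 differences, on the log2 scale. Without replicate 2 the interaction was called for 2 genes in all, Oaz1-ps and Snora31.

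Among the clock genes the value was 2.12 for Arntl, 1.58 for Npas2, 1.34 for Per1, 2.79 for Per2, 2.36 for Per3, 2.03 for Cry1, 1.75 for Cry2, 3.42 for Ciart, 3.06 for Nr1d1, 2.26 for Nr1d2, 1.62 for Nfil3, 4.39 for Dbp and 3.40 for Tef. Among the MR and sodium genes it was 2.19 for Sgk1, 1.31 for Tsc22d3, 1.53 for Scnn1b, 0.72 for Prss8 and 3.96 for Fxyd4. For chloride, surface, junction and T cell genes it was 2.21 for Slc26a3, 2.27 for Slc9a2, 2.62 for Clca4a, 2.97 for Cldn8, 4.52 for Gzma, 2.96 for Cd3e and 2.15 for Lck. Metabolic and transport genes gave 2.39 for Ces1d, 1.94 for Ces2c, 1.22 for Por, 1.56 for Cyp4f14, 2.71 for Slc3a1, 1.73 for Slco2a1, 1.75 for Smim24 and 4.99 for Arrdc4. The remaining genes gave 3.46 for Pyy, 1.97 for Gadd45gip1, 1.34 for Aurkb, 1.11 for Cdk1, 1.92 for Rpl8 and 2.56 for Rps19. Bmal1 knock out libraries had low scale factors at ZT12 to ZT20, and their part in these differences was not tested.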

How the results depend on the processing

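Values are numbers of genes called, in the order mean difference, 2-fold with 1 sign, interval within 1.5-fold, ZT0 to ZT20, interaction and rhythm difference, where they moved by over 1.5 times; the cause was not tested. With no filter: within 1.5-fold 16575, ZT4 550, interaction 1187. With a mean of at least 5: 4073, within 4558, ZT4 170, ZT16 2842, rhythm 3193. With FPKM as deposited, which shifts the median of all genes by −0.65 and gives 106 higher and 9303 lower: 9409, 2-fold 238, within 1322, ZT0 57, ZT4 43, ZT8 33, ZT12 9641, ZT16 9529, ZT20 8249, interaction 9391, rhythm 9912. With wild type in the fit: ZT0 1443, ZT4 774, ZT8 220, interaction 4382. With array weights: ZT0 3553, ZT4 3556, ZT8 3042, ZT12 6542, ZT16 7633, interaction 8215. With ZT4 and ZT8 only: 559, ZT8 70, interaction 0. Without libraries of low scale factor: 2728, within 5162, ZT0 42, ZT4 87, ZT20 259, rhythm 7, with no Bmal1 knock out library left at ZT12 and ZT16. With the length score as covariate: ZT4 617, ZT8 379, ZT16 1817, ZT20 1275, interaction 534, rhythm 1451. In the high-scale libraries, chosen after seeing the data: 546, ZT0 28, ZT4 44, ZT8 38, interaction 1.

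Leaving out replicates gave 4705 to 6649 for the mean difference, 117 to 148 for 2-fold, 6914 to 8157 within 1.5-fold, 25 to 2525 at ZT0, 22 to 563 at ZT4, 42 to 254 at ZT8, 487 to 3283 at ZT12, 1372 to 4840 at ZT16, 2303 to 5263 at ZT20, 2 to 3499 for the interaction and 92 to 5748 for rhythms, the last 2 lowest without replicate 2. It ended the call for 14 of 84 genes followed and reversed 0. The replicate block gave 6107 for the mean difference, 2050 for the interaction and 4965 for rhythms, and changed the call of none of the 84.

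Mean differences of single genes changed sign with FPKM as deposited for Clock (−0.58), Per1 (−0.38), Per2 (−0.37), Cry2 (−0.47), Hsd11b2 (−0.49), Sgk1 (−0.27), Prss8 (−0.43), Mki67 (−0.49), Aurkb (−0.64), Rpl8 (−0.0865), Irf9 (−0.65), Cdk1 (−0.47) and Slc9a8 (−0.64). These values include the shift of all genes, whose median was −0.65 there, so they are not changes of sign relative to the median gene. With ZT4 and ZT8 only the sign changed for Arntl (0.15), Pyy (−0.10), Rpl8 (−0.13) and Rps19 (−0.080), without libraries of low scale factor for Gzma (0.031), and in the high-scale libraries for Bhlhe40 (0.14), Nr3c1 (0.13), Pyy (−0.44), Rpl8 (−0.27) and Rps19 (−0.29).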

Other observations

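Arrdc4, an arrestin-domain gene known to respond to glucose, had a lowest, median and highest rescaled FPKM of 9.68, 14.6 and 20.4 in Bmal1 knock out and of 0, 9.03 and 18.9 in MR knock out. At ZT4 it had 14.1, 9.68 and 14.6 against 8.69, 0.0465 and 0.133, with no overlap (difference 3.16). Its amplitude over the day was 2.30 in MR knock out and 0.199 in Bmal1 knock out, and its mean difference was 1.62 (SE 0.23, limma adjusted p = 1.92e-06).

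Reg3g, an antibacterial lectin of the epithelium with near copies that may share reads, was lower in Bmal1 knock out by −1.81 (SE 0.34) over the 36 libraries and by −3.49 in the high-scale libraries, both called. At ZT4 Reg3g had 8.89, 88.0 and 14.1 in Bmal1 knock out and 73.4, 62.9 and 41.5 in MR knock out, with overlap. Duox2, an oxidase of mucosal defence, had −1.84 (SE 0.26) over the 36 libraries and −0.26 in the high-scale libraries, not called. Retnlb, a goblet cell product, had means of 2779 and 1416 against 201 in wild type (difference 1.33, SE 0.41), and 0.46 without replicate 3, not called.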
